A study of Mus musculus with 108 samples.

Results

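Replication-dependent histone messages end in a stem-loop in place of a poly(A) tail, and 7 genes that form, read or shorten that end or, for Npat, activate the histone genes are described here in mouse oocytes without Exosc10. Slbp, Lsm10, Lsm11, Zfp473, Casp8ap2, Npat and Eri1 were taken as the rows of the count files whose Ensembl mouse ID carries that symbol. Each symbol matched 1 row, which gives 7 of the 55573 genes counted. The rule itself reads no measured value, although the set was proposed with earlier results of these data known. All 7 genes passed the filter on low counts in each of the 3 main fits. On mm10 they lie at chr5:33634952-33652574 (Slbp, ENSMUSG00000004642, minus strand), chr4:126096623-126098584 (Lsm10, ENSMUSG00000050188, plus), chr11:45928269-45944935 (Lsm11, ENSMUSG00000044847, minus), chr7:44731480-44751050 (Zfp473, ENSMUSG00000048012, minus), chr4:32615451-32653265 (Casp8ap2, ENSMUSG00000028282, plus), chr9:53537047-53574342 (Npat, ENSMUSG00000033054, plus) and chr8:35465253-35496196 (Eri1, ENSMUSG00000031527, minus).

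In somatic cells Slbp (stem-loop binding protein) binds the hairpin of a histone message and stays with it through export, translation and decay. The U7 snRNP is a small ribonucleoprotein whose RNA pairs downstream of the hairpin, and its ring of Sm proteins contains Lsm10 and Lsm11 in place of the spliceosomal Snrpd1 and Snrpd2. Lsm11 and Casp8ap2 (FLASH) together recruit the cleavage complex, and Zfp473, the mouse counterpart of human ZNF473 (ZFP100), bridges Slbp and the U7 snRNP. Npat, a cyclin E and Cdk2 substrate, drives transcription of histone genes in the histone locus body, and Eri1 is a 3′ exonuclease that trims the hairpin after cleavage and during decay. In growing mouse oocytes Slbp is known to be needed for histone supply to the egg, and it accumulates as oocytes mature.

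Single oocytes came from females with an Exosc10 oocyte-specific knockout (cKO) or from control females (ctr). Exosc10 encodes a ribonuclease of the nuclear RNA exosome. No Cre driver, strain or age of the females was taken from the sources used here. Oocytes were collected at the GV stage (germinal vesicle intact), at GV3h (GV oocytes held 3 h in M2 culture medium) and as MII eggs taken from the oviduct. The polyA libraries, made from RNA caught on oligo(dT) beads, numbered 7 ctr and 15 cKO at the GV stage, 8 ctr and 11 cKO at GV3h, and 8 ctr and 15 cKO at MII. The RiboMinus libraries, primed with random hexamers and so not dependent on a poly(A) tail, numbered 8 ctr and 7 cKO at GV, and 3 ctr and 4 cKO at MII. Oocytes of the same female share their source, so counts were summed per female, and n below is the number of females. That gave 2 ctr and 2 cKO females at polyA GV, 3 and 3 at polyA GV3h and at polyA MII, 2 and 2 at RiboMinus GV, and 1 ctr and 2 cKO females at RiboMinus MII. With 1 control female, genotype and female cannot be told apart at RiboMinus MII, and the tests there assume that this female varies like those of the other RiboMinus groups.

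The hairpin and the U7 RNA, which most of these factors bind or act on, are shown first. Of 69 replication-dependent histone genes counted, 46 have the hairpin in a GENCODE M21 transcript, and it occurs in 8 sequence variants. The most frequent variant is found in 26 genes. Below, the 16 bases of the hairpin are in capitals with 5 bases of transcript on each side. Hist1h3f and Hist4h4 are among the 3 histone genes with the highest level in RiboMinus GV controls, and Hist1h1e shows the most frequent variant. Coordinates are mm10 (GRCm38).
Hist1h3f, chr13:23544927-23544952, plus strand: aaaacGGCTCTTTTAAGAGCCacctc
Hist4h4, chr6:136803993-136804018, minus strand: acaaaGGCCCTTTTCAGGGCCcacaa
Hist1h1e, chr13:23621777-23621802, minus strand: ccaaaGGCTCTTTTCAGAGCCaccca
The U7 snRNA gene Rnu7 (chr6:124741225-124741286, minus strand) encodes 62 bases. Its Sm site, on which the ring with Lsm10 and Lsm11 assembles, is in capitals.
Rnu7: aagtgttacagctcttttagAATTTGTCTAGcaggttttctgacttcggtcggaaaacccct

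All 86 libraries had total gene counts between 4638718 and 62675760, with the polyA libraries at 8735914 or below. In each comparison the highest cKO oocyte had an Exosc10 level under the lowest control oocyte, at most 8.29 against 94.1 CPM (counts scaled to library size by TMM). All 12 oocyte markers had counts in every group. Of 12 granulosa and cumulus markers, 6 to 11 had a count in a group, at a summed level of 53.7 to 167 CPM per oocyte. The files hold 0 rows for the added spike-in RNA, so every change is relative to the other genes of the library. The labels name females, not litters or batches. The 2 oocytes of cKO female V1166 stood apart from the other 5 RiboMinus MII oocytes. Their summed level of 6 blood and immune markers was 62.2 and 12.7 CPM against 0.571 to 4.25 CPM, with Hba-a1 and Hbb-bt at 0. Their Slbp was 907 and 1128 CPM against 366 to 512 CPM, and their Lsm10 was 15.3 and 6.91 CPM against 37.4 to 80.1 CPM. Oocyte 1 had 62675760 counts and oocyte 2 had 20678209, so oocyte 1 weighs more in the summed counts of V1166. Their Npat was 38.9 and 125.5 CPM, and the summed value was 59.1 CPM. Tests that use RiboMinus MII cKO females are therefore followed by the value without this female, and the part of the blood signal in them was not tested.

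Per kilobase of exon, taken over all annotated exons of a gene, the members formed a high and a low set in control GV oocytes. In polyA libraries Lsm10 was at 181 CPM per kb, Slbp at 101 and Casp8ap2 at 48.6, while Zfp473, Npat, Eri1 and Lsm11 lay between 3.76 and 5.53 CPM per kb. In RiboMinus libraries Slbp was highest at 135 CPM per kb, followed by Lsm10 at 69.7 and Casp8ap2 at 61.5, with the other 4 between 4.34 and 8.67. At MII polyA controls had Slbp at 347 CPM per kb, Casp8ap2 at 118 and Lsm10 at 12.6. The order depends on the length used. Over the longest coding transcript, an alternative chosen after seeing the data (1906 bases for Slbp and 5079 for Eri1), Slbp was highest in polyA GV controls too, at 322 CPM per kb against 181 for Lsm10. On that scale Eri1 led the low set, at 8.13 CPM per kb in polyA and 10.5 in RiboMinus GV controls, so no order is given within the low set beyond Lsm11, which had the lowest mean of the 7 in both kinds of GV control on both scales.

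**Figure D1:**
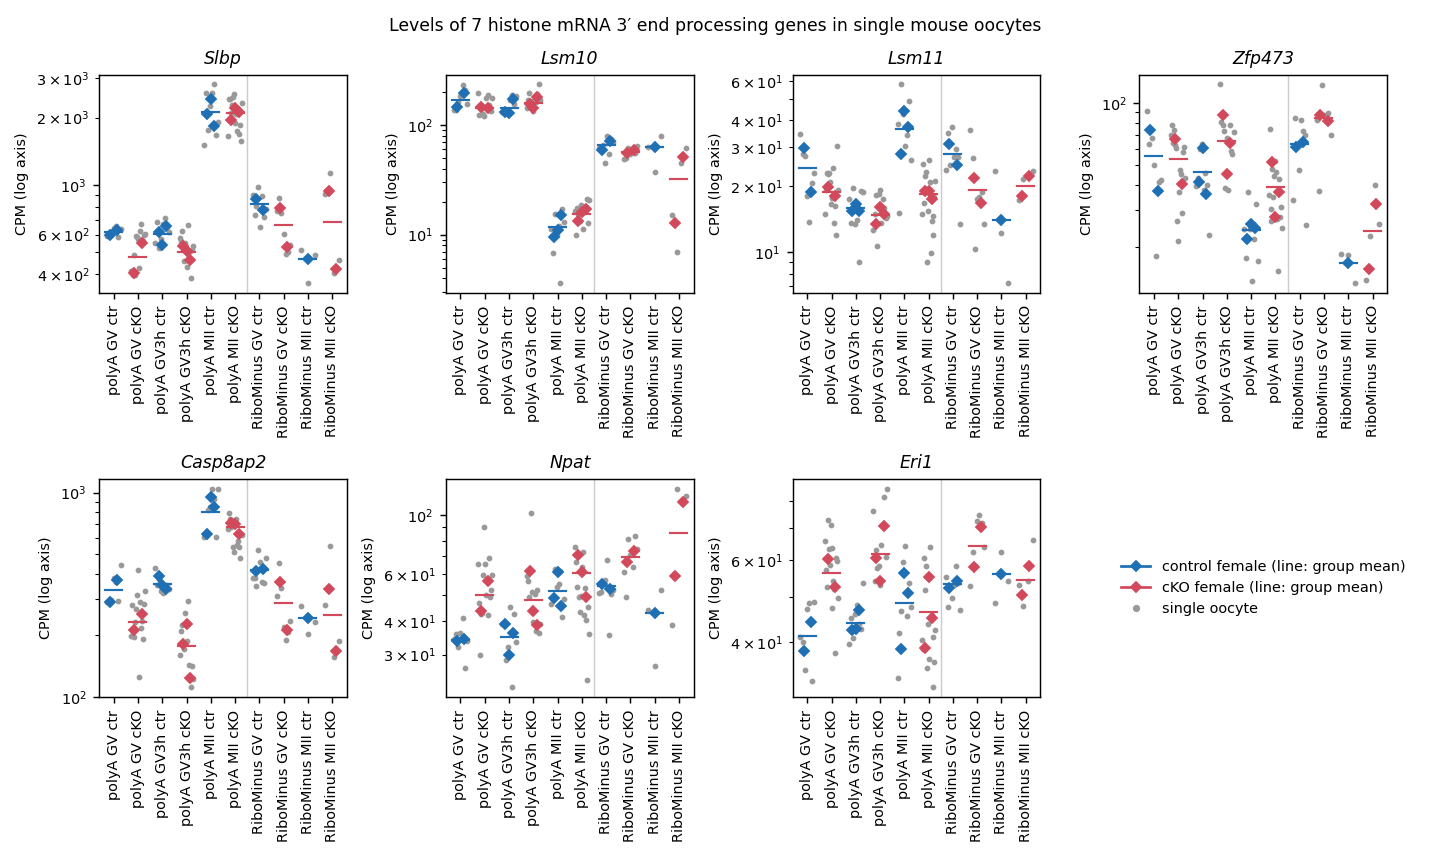
CPM of each gene on a log axis in the 10 groups; diamonds are females, lines are group means and grey points are single oocytes, with polyA groups left of the grey line and RiboMinus groups right of it. Slbp and Casp8ap2 are highest and Lsm10 is lowest in both polyA MII groups, with group means for Slbp of 2111 and 2091 CPM.

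Slbp had the highest RNA level of the set in polyA eggs. The polyA GV females had 600 and 629 CPM in controls and 406 and 550 CPM in cKO, and the GV3h females had 541 to 656 and 462 to 532 CPM. The MII females had 1825, 2082 and 2426 CPM in controls and 1943, 2117 and 2214 CPM in cKO. Every MII female lay above every GV and GV3h female. Slbp rose 3.44-fold from GV to MII in controls (log2 change 1.78, SE 0.161, edgeR adjusted p = 2.56e-07) and 4.38-fold in cKO (2.13, SE 0.163, adjusted p = 8.67e-08). In RiboMinus libraries the order was different. The GV females had 776 and 868 CPM in controls and 530 and 790 CPM in cKO, the 1 control MII female had 468 CPM, and the cKO MII females had 940 (V1166) and 421 CPM (V1167). The RiboMinus log2 changes from GV to MII were −0.81 (SE 0.459) in controls and 0.04 (SE 0.362) in cKO, and −0.64 (SE 0.283) in cKO without V1166, none of which passed the test (edgeR adjusted p = 0.444, 0.96 and 0.257). Slbp shares 474 bases of exon with Gm10459 on the opposite strand, and the strand setting of the counting is not given in the sources used here, so reads there could belong to either gene.

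Lsm10, an Sm-like ring protein of the U7 snRNP, moved the other way in polyA libraries. The GV females had 146 and 196 CPM in controls and 142 and 146 CPM in cKO, and the GV3h females ranged from 129 to 180 CPM over both genotypes. At MII the controls had 9.43, 11.02 and 15.1 CPM and the cKO females 13.4, 16.2 and 17.0 CPM. No MII oocyte exceeded 21.1 CPM and no GV or GV3h oocyte was below 120 CPM. Lsm10 fell 14.4-fold in controls (log2 change −3.85, SE 0.212, edgeR adjusted p = 1.83e-09) and 9.24-fold in cKO (−3.21, SE 0.206, adjusted p = 2.05e-08). RiboMinus levels were 59.8 and 71.7 CPM in control GV females and 63.1 CPM in the control MII female, with a log2 change of −0.06 (SE 0.628). In cKO they were 55.3 and 59.1 CPM at GV, and 12.9 (V1166) and 51.6 CPM (V1167) at MII. The cKO change was −0.83 (SE 0.515, edgeR adjusted p = 0.381) with both females. Without V1166 it was −0.14 (SE 0.242, adjusted p = 0.767), and without V1167 it was −2.15 (SE 0.276, adjusted p = 0.0174), so 1 female sets this value.

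Lsm11, the partner of Lsm10 that contacts Casp8ap2, had group means between 14.0 CPM, in RiboMinus control eggs, and 36.4 CPM, in polyA control eggs. Its polyA females had 18.8 and 29.7 CPM at GV and 28.0, 37.3 and 43.8 CPM at MII in controls, against 18.0 and 19.8 CPM and 17.4 to 19.0 CPM in cKO. The polyA changes from GV to MII did not pass the test (log2 0.59, SE 0.240, edgeR adjusted p = 0.0595 in controls and −0.03, SE 0.236, adjusted p = 0.927 in cKO). The control change was called by DESeq2, with DESeq2 size factors in edgeR, with oocytes as replicates, and without V856 or V836. RiboMinus females had 24.9 and 31.1 CPM at GV and 14.0 CPM at MII in controls, and 16.7 to 22.3 CPM at both stages in cKO. The control RiboMinus change of −0.997 (SE 0.392, edgeR adjusted p = 0.283) was not called either.

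Zfp473, the zinc finger protein of the U7 snRNP, was lower in eggs. In polyA controls the GV females had 37.4 and 73.6 CPM and the MII females 21.8, 24.5 and 25.8 CPM, with no overlap. It fell 2.30-fold (log2 change −1.20, SE 0.343, edgeR adjusted p = 0.00972), a call lost without GV female V856, where the change was −0.65 (adjusted p = 0.243). In polyA cKO the values overlapped, with 40.2 and 66.5 CPM at GV and 27.9 to 51.5 CPM at MII (log2 −0.46, SE 0.342, edgeR adjusted p = 0.298). In RiboMinus libraries the control GV females had 60.9 and 64.7 CPM and the control MII female 16.7 CPM, and the cKO females had 81.8 and 86.9 CPM at GV and 15.6 and 32.2 CPM at MII. The RiboMinus fall passed the test in cKO (log2 −1.82, SE 0.339, edgeR adjusted p = 0.0387) but not in controls (−1.91, SE 0.444, adjusted p = 0.126). In cKO the change was −1.38 without V1166, −1.78 without V1126 and −1.87 without V1131, and none of these fits kept the call. Each leaves 1 female in a group, so the lost call cannot be read as a trait of this gene. Zfp473 overlaps Vrk3 by 205 exon bases on the opposite strand.

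Casp8ap2, which with Lsm11 brings in the cleavage complex, followed Slbp in polyA libraries. Control females had 292 and 371 CPM at GV, 336 to 389 CPM at GV3h, and 627, 849 and 948 CPM at MII. The cKO females had 212 and 254 CPM at GV, 124 to 227 CPM at GV3h, and 626 to 706 CPM at MII. Each MII female was above each GV and GV3h female. The rise from GV to MII was 2.44-fold in controls (SE 0.224 on the log2 scale, edgeR adjusted p = 0.000216) and 2.91-fold in cKO (SE 0.227, adjusted p = 4.48e-05). RiboMinus females had 415 and 425 CPM at GV and 243 CPM at MII in controls, and 213 and 366 CPM at GV and 167 (V1167) and 339 CPM (V1166) at MII in cKO. These changes were −0.79 (SE 0.455) and −0.20 (SE 0.359) on the log2 scale and were not called (edgeR adjusted p = 0.453 and 0.793), nor was the cKO change without V1166, at −0.79 (SE 0.331, adjusted p = 0.241).

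Npat, the histone gene activator, and Eri1, the 3′ exonuclease, changed less from GV to MII in polyA libraries than Slbp, Lsm10 and Casp8ap2. Npat polyA females had 33.7 and 34.3 CPM at GV and 45.7 to 61.0 CPM at MII in controls, and 43.9 to 56.8 CPM and 49.2 to 70.9 CPM in cKO. The control rise of 1.52-fold was called (log2 0.61, SE 0.233, edgeR adjusted p = 0.0456), but it was 0.17 (adjusted p = 0.58) when libraries were scaled to their totals and 0.66 (adjusted p = 0.0538) with no filter on low counts, and it was lost without any of V856, V889, V836 or V853 (adjusted p 0.0539 to 0.185). Npat lies 307 bases from Atm on the opposite strand, with no exon overlap. Eri1 polyA females had 38.3 and 44.3 CPM at GV and 38.7 to 56.1 CPM at MII in controls, and 52.4 to 60.2 CPM and 38.9 to 55.2 CPM in cKO. In the main edgeR fits Eri1 was called in no stage comparison. From GV to MII in polyA cKO (log2 −0.28, SE 0.196, edgeR adjusted p = 0.267) it was called as lower when libraries were scaled to their totals, with oocytes as replicates, and by limma voom with female as a random block.

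Over the set, 5 of 7 genes were called from GV to MII in polyA controls (3 higher and 2 lower) and 3 of 7 in polyA cKO (2 higher and 1 lower), where 42.3% and 44.6% of all 19242 tested genes were called. Stage calls were thus common among all genes, and the cKO count is near that background. Members ranged from −3.85 to 1.78 on the log2 scale in controls, with a median of 0.59 against −0.26 over all genes, and the cKO median was −0.03 against −0.33. Scaling to library totals moved the all-gene median to −0.69 in controls and −0.86 in cKO, and the share of called genes that were higher from 39.5% to 21.4% (40.6% to 20.1% in cKO). Slbp and Casp8ap2 stayed called as higher and Lsm10 as lower under that scaling. Without the poly(A) step, RiboMinus controls had 0 of 7 members called by edgeR, beside 0.0118% of 25425 genes, with 2 at an unadjusted p under 0.05 and 1 (Zfp473) called by DESeq2. In RiboMinus cKO 1 of 7 was called (Zfp473, log2 −1.82), beside 2.36%. Without V1166, which leaves 1 MII cKO female, the Zfp473 change was −1.38. In the same polyA oocytes the 12 granulosa and cumulus markers summed to 56.8 to 85.4 CPM at GV and 90.8 to 159 CPM at MII in controls, without overlap, and to 58.0 to 85.2 and 78.4 to 144 CPM in cKO, with overlap. Ptx3 and Tnfaip6 were at 0 in both GV groups, Foxl2, Fshr and Lhcgr in control eggs and Ptx3 in cKO eggs. The part of these markers in the stage changes was not tested.

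After 3 h in culture no member was called. From GV to GV3h edgeR called 0 of 7 in controls and 0 of 7 in cKO, beside 0% of all genes in each, with 1 (Lsm11) and 0 members at an unadjusted p under 0.05 and 0 by DESeq2. The largest of these log2 changes was −0.61 (SE 0.236) for Lsm11 in controls. The test of a difference between genotypes in the stage change called no member: edgeR called 0 of 7 in the interaction tests from GV to GV3h (0% of all genes), from GV to MII in polyA (1.99%) and from GV to MII in RiboMinus (0%), with 0, 1 (Lsm10) and 0 at an unadjusted p under 0.05 and 0 by DESeq2. Without V1166 the RiboMinus interaction test also called 0 of 7, with 2 at an unadjusted p under 0.05, and the same counts were found without V1167. Scaled to library totals, the share of all called polyA interactions that were higher was 68.7% in place of 81.7%. With each oocyte taken as a replicate, which treats oocytes of 1 female as independent, 4 of 7 polyA interactions from GV to MII were called, beside 16.8% of all genes in that fit.

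**Figure D2:**
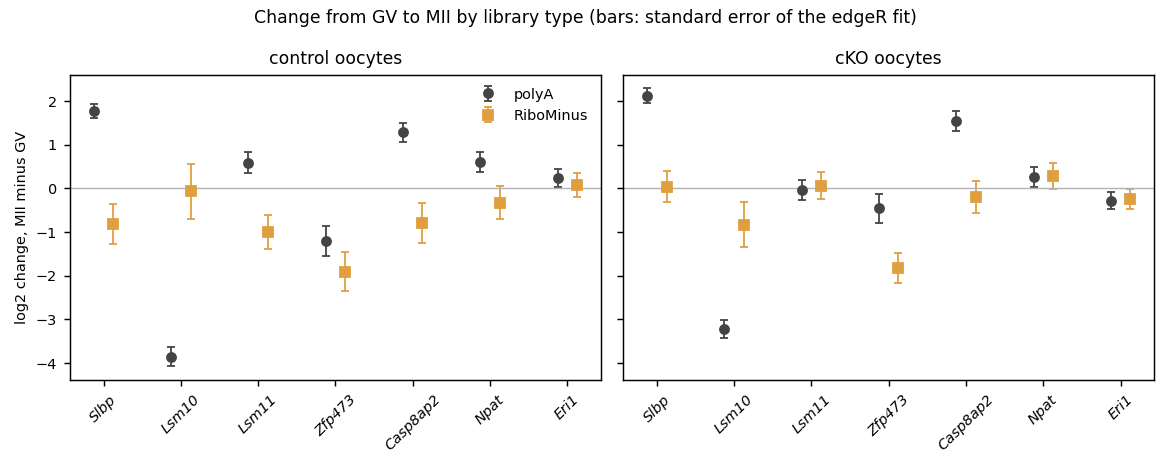
Log2 change from GV to MII for each gene in control (left) and cKO (right) oocytes, with standard errors; circles are polyA and squares RiboMinus libraries. In controls Slbp is at 1.78 in polyA and −0.81 in RiboMinus libraries, and Lsm10 is at −3.85 and −0.06.

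The 2 library types gave different stage changes for several members, which was tested in a fit over all 23 females as the polyA change minus the RiboMinus change from GV to MII. In controls 4 of 7 members were called, beside 22.9% of 24777 genes. The difference was 2.76 for Slbp (SE 0.428, edgeR adjusted p = 4.88e-05), 2.23 for Casp8ap2 (SE 0.469, adjusted p = 0.00112), 1.76 for Lsm11 (SE 0.426, adjusted p = 0.00398) and −3.63 for Lsm10 (SE 0.560, adjusted p = 4.62e-05). In cKO 4 of 7 were called, beside 20.8%. There it was 2.26 for Slbp (SE 0.361, edgeR adjusted p = 0.000103), 1.91 for Casp8ap2 (SE 0.400, adjusted p = 0.00141), 1.55 for Zfp473 (SE 0.512, adjusted p = 0.0352) and −2.20 for Lsm10 (SE 0.511, adjusted p = 0.00335). Slbp and Casp8ap2 were therefore higher, and Lsm10 lower, in eggs relative to GV oocytes when RNA was caught by its poly(A) tail than when it was not. Without V1166 the cKO differences were 2.95 for Slbp and 2.51 for Casp8ap2, −2.88 for Lsm10 (edgeR adjusted p = 7.63e-06) and 1.12 for Zfp473 (adjusted p = 0.159, no longer called). The Zfp473 call was also lost without V888, V841, V897, V1126 or V1131 (adjusted p 0.053 to 0.14) and under scaling to library totals (0.80, adjusted p = 0.301). Without V1167 the Lsm10 difference was −0.87 (edgeR adjusted p = 0.0845). Scaled to library totals, the share of all called genes that were higher was 28.2% in place of 47.8% in controls and 20.9% in place of 56% in cKO, with the all-gene median at −0.32 and −0.93 in place of 0.00 and −0.24. Slbp, Casp8ap2 and Lsm10 kept their direction and calls under it. Length of the tail was not measured, and the control arm rests on 1 RiboMinus MII female.

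The annotated 3′ ends of the members differ in elements that act on tails in oocytes. The cytoplasmic polyadenylation element, bound by Cpeb1, was searched as TTTTAT or TTTTAAT, and the polyadenylation signal as AATAAA or ATTAAA, on the transcript strand in the last 100 bases of the longest protein-coding transcript in GENCODE M21. The element was found in 4 of 7 members (Lsm11, Zfp473, Casp8ap2 and Eri1) and in 16.6% of 21831 genes. The signal was found in 5 members (all but Lsm10 and Npat) and in 74.8% of genes. The search was chosen after the changes were seen, and a match is only a match of letters. Other annotated ends were not searched. For Slbp the transcript has 1906 bases of 6076 annotated exon bases, and the gene reaches chr5:33634952, past the end searched. Windows of 30 bases are shown with complete motifs in capitals, for each member with a match.
Slbp, chr5:33640058-33640087, minus strand: tgcaaaAATAAAgaccctttaactgacttg
Casp8ap2, chr4:32653182-32653211, plus strand: ggttttTTTTATctatATTAAAtattttgt
Lsm11, chr11:45928300-45928329, minus strand: ttctgcTTTTAATatgtgtcaaatgggagt
Zfp473, chr7:44731504-44731533, minus strand: atataaTTTTATgataaagacaagaaataa
Eri1, chr8:35465290-35465319, minus strand: taggaaTTTTATgaAATAAAattttgatgt
Slbp thus had the signal but neither spelling of the element in the last 100 bases of this transcript. Lsm11, Zfp473, Casp8ap2 and Eri1 had both motifs, and not every match lies in the 30 bases shown. Lsm10, the gene with the largest fall, had neither motif.

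**Figure D3:**
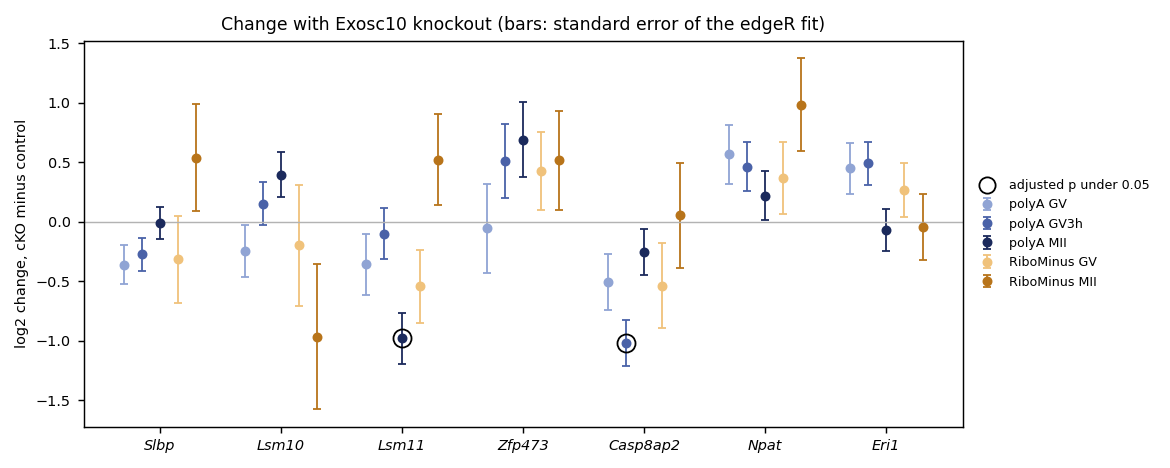
Log2 change between cKO and control oocytes for each gene in the 5 comparisons, with standard errors; open rings mark edgeR adjusted p under 0.05. The ringed values are Casp8ap2 at polyA GV3h (−1.02) and Lsm11 at polyA MII (−0.98).

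Loss of Exosc10 was accompanied by few changes in the set. At polyA GV 0 of 7 members were called by edgeR, beside 7.44% of all genes, with 3 at an unadjusted p under 0.05 (Slbp, Casp8ap2 and Npat) and 0 by DESeq2. At polyA GV3h 1 of 7 was called, beside 25.2%, and at polyA MII 1 of 7, beside 18.9%. At RiboMinus GV 0 of 7 were called, beside 0.0315%, with 0 at an unadjusted p under 0.05 and 0 by DESeq2. At RiboMinus MII 0 of 7 were called, beside 7.38%, with 1 (Npat) at an unadjusted p under 0.05 and 0 by DESeq2, and 1 was called without V1166 (Npat) or without V1167 (Lsm10). The polyA counts are thus no larger than the background of all genes. Blood and immune markers (6 genes) summed to 2.08 to 13.1 CPM per oocyte in cKO and 0.578 to 3.55 CPM in controls at polyA GV, and to 0.57 to 10.4 and 0 to 2.06 CPM at GV3h. They summed to 1.28 to 11.5 and 0 to 2.26 CPM at polyA MII, and to 0.929 to 8.87 and 0.814 to 2.45 CPM at RiboMinus GV. The highest cKO oocyte was thus above the highest control in each of these comparisons, the ranges overlapped, and Hba-a1 was at 0 in every group. Granulosa and cumulus markers summed to 69.4 to 96.8 CPM in cKO and 141 to 161 CPM in control RiboMinus MII eggs, without overlap, with Amh, Foxl2, Inhbb, Lhcgr, Ptx3 and Tnfaip6 at 0 in the controls and Inhbb, Ptx3 and Tnfaip6 at 0 in cKO. The part of these markers in the genotype differences was not tested.

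Casp8ap2 was lower in cKO oocytes at GV3h. The control females had 336, 352 and 389 CPM and the cKO females 124, 180 and 227 CPM. The oocytes did not overlap either, at 323 to 425 CPM in controls and 112 to 296 CPM in cKO. It fell by 1.02 on the log2 scale (SE 0.194, edgeR adjusted p = 0.00152), and the call was kept without each of the 6 females in turn. At polyA GV it was −0.51 (SE 0.236, edgeR adjusted p = 0.202), at polyA MII −0.25 (SE 0.192, adjusted p = 0.378) and at RiboMinus GV −0.54 (SE 0.360, adjusted p = 0.524). At RiboMinus MII it was 0.06 (SE 0.441, edgeR adjusted p = 0.968), with −0.53 without V1166 and 0.48 without V1167, so its sign there rests on single females. The difference between genotypes in the change from GV to GV3h was not called (interaction −0.51, SE 0.304, edgeR adjusted p = 1), so the GV3h difference is not shown to be specific to that stage.

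Lsm11 was lower in cKO eggs, with no overlap between 28.0 to 43.8 CPM in control females and 17.4 to 19.0 CPM in cKO females. It fell by 0.98 on the log2 scale at polyA MII (SE 0.214, edgeR adjusted p = 0.00552), a call kept without each female in turn. Single oocytes overlapped, at 15.1 to 58.0 CPM in controls and 9.03 to 26.4 CPM in cKO. In RiboMinus eggs it was 0.52 (SE 0.383, edgeR adjusted p = 0.394) and 0.69 (SE 0.391, adjusted p = 0.265) without V1166, and the difference between stages in polyA was not called (interaction −0.62, SE 0.334, adjusted p = 0.379).

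The other members showed smaller or unstable differences. Eri1 was 0.45 (SE 0.216, edgeR adjusted p = 0.222) at polyA GV and 0.49 (SE 0.178, adjusted p = 0.0543) at polyA GV3h. It was called at GV3h by DESeq2, with DESeq2 size factors, with only the 2 groups compared and without female V983. Limma voom with female as a random block and oocytes as replicates called it at both stages. The GV3h females did not overlap, at 42.4 to 46.8 CPM in controls and 54.2 to 70.7 CPM in cKO. Npat was 0.57 (SE 0.25, edgeR adjusted p = 0.181) at polyA GV, 0.46 (SE 0.205, adjusted p = 0.112) at GV3h and 0.98 (SE 0.389, adjusted p = 0.144) at RiboMinus MII. Without V1166 the RiboMinus MII difference of Npat was 1.39 (SE 0.264, edgeR adjusted p = 0.0329), and without V1167 it was 0.45 (SE 0.267, adjusted p = 0.26). Slbp was −0.36 (SE 0.165, edgeR adjusted p = 0.194; called without V888) at polyA GV and −0.01 (SE 0.134, adjusted p = 0.965) at polyA MII. At RiboMinus MII Slbp was 0.54 (SE 0.453) with V1166 and −0.14 (SE 0.318) without it, so its sign rests on that female. Lsm10 at RiboMinus MII was −0.97 (SE 0.609, edgeR adjusted p = 0.329), −0.27 (adjusted p = 0.528) without V1166 and −2.29 (adjusted p = 0.0154) without V1167. Zfp473 was 0.69 (SE 0.314, edgeR adjusted p = 0.136) at polyA MII. The genotype difference at GV was not called as different between library types for any member (0 of 7 by edgeR, beside 0.00404% of genes, with 0 at an unadjusted p under 0.05; DESeq2 was not run on that fit). Scaled to library totals, the share of called genes that were higher in cKO was 74% in place of 46.7% at polyA GV, 70.4% in place of 49.4% at polyA GV3h and 65.5% in place of 49.2% at RiboMinus MII, and the all-gene medians from 0.08 to 0.27, from 0.07 to 0.29 and from 0.25 to 0.45. Under that scaling Eri1 and Npat were also called as higher at polyA GV3h.

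Other genes of the pathway are given by role. Their counts are to be read beside the shares of all genes called in the same comparisons, which were 7.44% with genotype at polyA GV, 25.2% at polyA GV3h, 18.9% at polyA MII and 7.38% at RiboMinus MII, and 42.3% and 44.6% from GV to MII in polyA controls and cKO. The polyA GV calls rest on a spread estimated over all polyA groups. With only the 2 polyA GV groups compared, 1 of 18004 genes was called (0.00555%). Of the 5 Sm ring proteins that the U7 snRNP shares with the spliceosome (Snrpb, Snrpd3, Snrpe, Snrpf and Snrpg), 4 rose from GV to MII in polyA controls, and 4 rose and 1 (Snrpb) fell in polyA cKO (4 and 1 in both when scaled to library totals). Snrpd3 averaged 115 CPM at GV and 353 CPM at MII in polyA controls (log2 1.61, SE 0.189, edgeR adjusted p = 3.95e-06) and 41.0 and 36.5 CPM in RiboMinus controls. The polyA change minus the RiboMinus change for Snrpd3 was 1.94 in controls (edgeR adjusted p = 0.000209) and 1.97 in cKO (adjusted p = 5.61e-05; 2.12 without V1166). Of the 2 spliceosomal proteins that Lsm10 and Lsm11 replace, Snrpd2 fell by 5.62 on the log2 scale in polyA controls (SE 0.396, edgeR adjusted p = 1.9e-08) while Snrpd1 was 0.69 (SE 0.165, adjusted p = 0.00296; not called when scaled to library totals). In RiboMinus controls the Snrpd2 change was 0.38 (SE 0.836). These last 2 genes were named after their values were seen. With genotype, 2 of the 5 shared ring genes were higher in cKO at polyA GV3h, which were Snrpb (4.92 against 23.6 CPM, edgeR adjusted p = 0.0129) and Snrpd3 (98.0 against 154 CPM, adjusted p = 0.00801).

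Of the 4 cleavage complex genes (Sympk, Cpsf2, Cpsf3 and Cstf2), 1 was higher in cKO at polyA GV, 1 higher and 1 lower at GV3h, and 2 higher and 1 lower at MII. The lower gene at GV3h was not called when libraries were scaled to their totals. Cstf2, a cleavage stimulation factor subunit, was 23.2 CPM in controls and 55.9 CPM in cKO at polyA GV (log2 1.27, SE 0.337, edgeR adjusted p = 0.0321). Its females there had 17.48 and 28.83 CPM in controls and 33.52 and 78.35 CPM in cKO. Sympk, the scaffold symplekin, was higher in cKO eggs in polyA (0.96, SE 0.251, adjusted p = 0.0152) and in RiboMinus libraries (1.13, SE 0.282, adjusted p = 0.0473; adjusted p = 0.0533 without V1166). Of the cap-binding genes Ncbp1 and Ncbp2 and their partner Srrt (Ars2), 2 of 3 were higher in cKO at polyA GV and at GV3h. Ncbp1 was 4.78 CPM in controls and 20.7 CPM in cKO at polyA GV (edgeR adjusted p = 0.0272), and 3.32 and 20.9 CPM at GV3h (log2 2.67, SE 0.454, edgeR adjusted p = 0.000702). At polyA GV the cKO females differed, at 12.9 and 28.43 CPM. Srrt was 26.4 and 67.4 CPM at polyA GV (log2 1.35, SE 0.238, edgeR adjusted p = 0.00556).

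Of 7 histone decay genes (Upf1, Smg1, Tut4, Tut7, Lsm1, Dcp2 and Xrn1), 1 was higher and 1 lower in cKO at polyA GV, and 1 higher and 2 lower at GV3h. At polyA MII 0 were higher and 1 lower, and at RiboMinus MII 1 was higher and 1 lower, also without V1166. At RiboMinus GV edgeR called 0, with 2 (Dcp2 and Lsm1) at an unadjusted p under 0.05. The lower genes, named here after their values were seen, were Dcp2 at polyA GV, GV3h and RiboMinus MII, Upf1 at GV3h and Tut7 at polyA MII. Lsm1, a subunit of the cytoplasmic decapping ring, was 50.9 CPM in controls and 171 CPM in cKO at polyA GV and 45.1 and 232 CPM at GV3h (log2 2.36, SE 0.306, edgeR adjusted p = 0.000125). Tut4, a terminal uridylyl transferase, was called as higher in RiboMinus cKO eggs (edgeR adjusted p = 0.0291; adjusted p = 0.033 without V1166), where the 3 control oocytes had 0 to 1 counts and the 4 cKO oocytes 22 to 632. Of 8 Slbp partners and turnover genes, 0 were called with genotype by edgeR at polyA GV (1, Fem1a, at an unadjusted p under 0.05) and at RiboMinus GV (3, Fem1a, Fem1b and Fem1c), 2 were higher and 1 lower in cKO at polyA MII, and 1 was higher at RiboMinus MII (2 without V1166). The count at GV3h is not reported here. Mif4gd (Slip1), the translation partner of Slbp, was lower in polyA cKO eggs (89.6 against 53.4 CPM, log2 −0.75, edgeR adjusted p = 0.00964) and higher in RiboMinus cKO eggs (8.30 against 26.2 CPM, log2 1.66, adjusted p = 0.038; adjusted p = 0.0467 without V1166). Mif4gd also rose from GV to MII in polyA controls (log2 1.98, SE 0.216, edgeR adjusted p = 1.86e-06). Its polyA change minus its RiboMinus change was 3.28 in controls (edgeR adjusted p = 1.36e-06), which rests on 1 RiboMinus MII female. In cKO this difference was 1.09 (edgeR adjusted p = 0.0137), and 1.16 without V1166.

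Of 6 genes of the histone locus body and histone transcription (Ccne1, Ccne2, Cdk2, Hinfp, Pou2f1 and Coil), 2 were higher in cKO at polyA GV, 4 at GV3h and 1 at MII, and none was lower. The median log2 change at GV3h was 1.03 against 0.07 over all genes. Ccne1, the cyclin that with Cdk2 phosphorylates Npat, was 3.27 CPM in controls and 25.7 CPM in cKO at polyA GV (log2 2.98, SE 0.530, edgeR adjusted p = 0.00567) and 4.66 and 32.3 CPM at GV3h. Coil, the coilin of Cajal bodies, was 12.2 and 32.5 CPM at polyA GV3h (log2 1.41, SE 0.430, edgeR adjusted p = 0.0251). At RiboMinus GV the list's median was 0.63 against 0.04, with 0 of 6 called (edgeR), and at RiboMinus MII it was 0.02 against 0.25, with 0 of 6 called (0.07 and 0 of 6 without V1166). Rnu7 itself had 0 to 141 counts in a library, and its groups were not compared.

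**Figure D4:**
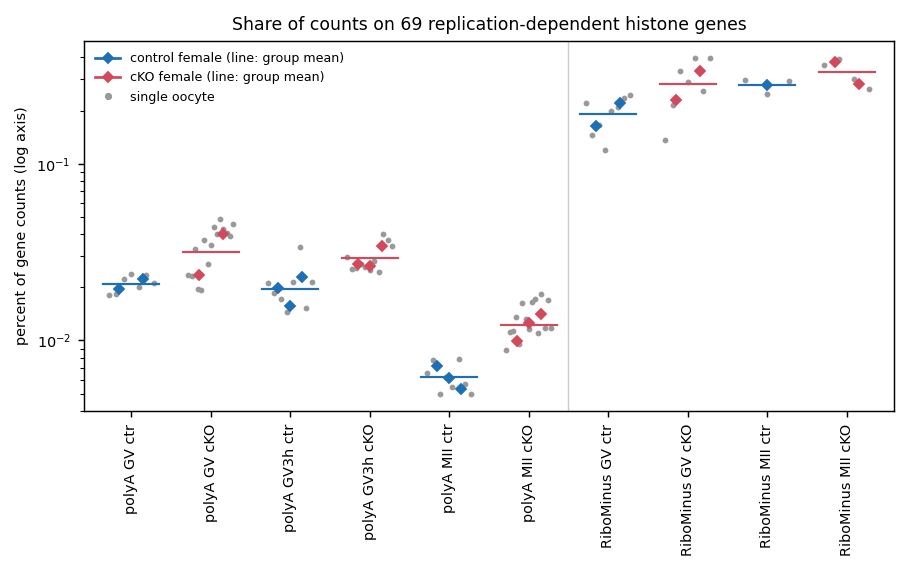
Percent of gene counts on 69 replication-dependent histone genes in the 10 groups, on a log axis; diamonds are females, lines are group means and grey points are single oocytes. Means run from 0.0062% in polyA MII controls to 0.329% in RiboMinus MII cKO eggs.

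The replication-dependent histone share, the percent of gene counts on the 69 genes, was read beside the factors. In polyA libraries, where mature histone messages are not caught by a tail, it averaged 0.0209% ± 0.0018 (SD, n = 2) in GV controls and 0.0318% ± 0.0116 (n = 2) in GV cKO. It was 0.0195% ± 0.0036 and 0.0292% ± 0.0043 at GV3h and 0.0062% ± 0.00091 and 0.0122% ± 0.0021 at MII (n = 3 each). RiboMinus shares were higher, at 0.192% ± 0.0412 (n = 2) in GV controls, 0.282% ± 0.0765 (n = 2) in GV cKO, 0.28% in the control MII female and 0.329% ± 0.0659 (n = 2) in MII cKO. Each mean was higher in cKO, and females did not overlap in any of the 5 comparisons.

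None of these differences passed a test over females. The two-sided exact permutation p was 0.33 at polyA GV, 0.1 at polyA GV3h, 0.1 at polyA MII, 0.33 at RiboMinus GV and 0.667 at RiboMinus MII (adjusted over the 5 comparisons, 0.417, 0.25, 0.25, 0.417 and 0.667). The smallest p that the numbers of females allow is 0.33 at GV and at RiboMinus MII and 0.1 at polyA GV3h and MII. Over oocytes, which share females, the permutation p was 0.0021, 0.00304, 2e-05, 0.0239 and 0.229 in the same order. Single females moved the difference: at polyA GV it was 0.0109 percentage points and 0.00271 without V888, at RiboMinus GV 0.0898 and 0.0357 without V1131, and at RiboMinus MII 0.0496 and 0.0031 without V1166.

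Different histone genes made up the share in the 2 library types. In polyA GV controls Hist1h2bc held 55.2% of histone counts, and in RiboMinus GV controls Hist1h1a held 43.4% and Hist1h3f 17.1%. The polyA make-up also differed with genotype. Hist1h2bc held 27.4% in polyA GV cKO, 52.8% in controls and 20.3% in cKO at GV3h, and 35% and 45.7% at MII. The linker histone gene Hist1h1a averaged 11.7 CPM in polyA and 864 CPM in RiboMinus GV controls, and the H3 gene Hist1h3f 3.25 and 342 CPM. The H4 gene Hist4h4 averaged 2.46 and 128 CPM. None of these 3 genes was called with genotype. By gene, 3 of 32 tested histone genes were higher and 0 lower in cKO at polyA GV, 9 higher and 1 lower at GV3h, and 5 and 0 at MII, with medians of 1.11, 1.19 and 0.96 on the log2 scale against 0.08, 0.07 and 0.12 over all genes. The shares of all genes called there were 7.44%, 25.2% and 18.9%, so the polyA counts of histone genes called are near the background. Scaled to library totals, 4, 11 and 7 were higher. In RiboMinus libraries 1 of 61 was higher at GV, beside 0.0315% of all genes called, and 7 were higher and 1 lower at MII, beside 7.38% (4 and 0 without V1166). From GV to MII 0 of 32 rose and 11 fell in polyA controls, where 42.3% of all genes were called, and edgeR called 0 of 61 in RiboMinus controls, beside 0.0118%. Copies within histone families are nearly identical, so the split of reads between single genes is uncertain. In an M21 transcript, 23 of the 69 genes have over 100 bases after the hairpin.

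The members did not share 1 course. Over the 16 polyA females the Pearson correlation of log2(CPM + 1) was 0.913 between Slbp and Casp8ap2, −0.973 between Slbp and Lsm10 and −0.872 between Casp8ap2 and Lsm10. Eri1 lay within −0.464 and 0.231 of every other member. These points share library type, stage and scaling, so the values describe the stage pattern. The genes most like Slbp were Gm10459, which overlaps it (0.997), Mphosph6 (0.994) and H1foo, the oocyte linker histone (0.994). Those most like Lsm10 were Fam162a, Mkks and AL731706.1 (0.997 each), and those most like Casp8ap2 were Bmi1, Tnks and Slc39a10 (0.989 to 0.991). The remaining members had looser matches, with Fgfr1 (0.895), Gabra3 and Pag1 nearest to Lsm11, Gsdmcl2 (0.895), Tbrg4 and Camkv to Zfp473, Ctnnd1 (0.918), Gm28635 and Gm45809 to Npat, and AC138790.1 (0.88), Heatr3 and Dolpp1 to Eri1.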

How the data were processed

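Single-oocyte RNA-seq files of 64 polyA and 22 RiboMinus libraries were used, and 22 rRNA files were not. The deposited values are raw read counts per Ensembl gene. The submitters' processing notes name cutadapt 2.5, FastQC 0.11.8, STAR 2.7.2a, SAMtools 1.9, HTSeq 0.9.1, R 3.5.1, DESeq2 1.24.0 and mm10, and the annotation release and strand setting are not given in the sources used here. HTSeq's summary rows (5.85 to 14.2% without a feature, 2.07 to 3.19% ambiguous) were left out. Gene totals ran from 4638718 to 8735914 in polyA and from 12319658 to 62675760 in RiboMinus libraries. No 2 libraries of a group agreed within sampling noise (lowest chi-square per degree of freedom 5.23).

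Counts were summed per female and tested with edgeR 4.0.16 (R 4.3.3; TMM, filterByExpr, robust quasi-likelihood F-test, two-sided, Benjamini-Hochberg over all genes, called at 0.05). There was 1 fit for polyA (19242 genes), 1 for RiboMinus (25425) and 1 joint fit for differences between library types (24777). The histone share was compared by an exact permutation test over females. On simulated counts for polyA GV (19242 genes) 28% of 2-fold and 64% of 4-fold changes were recovered, and for RiboMinus GV (25425 genes) 9% and 59%. The alternatives were DESeq2 1.42.0, DESeq2 size factors, library totals, no filter, only the 2 groups compared, oocytes as replicates, limma 3.58.1 voom with female as a random block, and each female left out. Levels per kb were also computed over the longest coding transcript, an alternative added after the data were seen.

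The member rule reads no measured value, but members and lists were chosen with earlier results of these data known. Genes named by rule are all members, up to 2 genes of each list with the largest called genotype change, the 3 histone genes highest in RiboMinus GV controls, and the 3 genes most correlated with each member. Others, such as Snrpd1, Snrpd2, Dcp2, Upf1, Tut7, Fem1a, Fem1b, Fem1c and Hist1h2bc, were named outside this rule. The result of 1 gene chosen by this rule is not reported here. Positions and sequences are from GENCODE M21 (GRCm38, mm10). Figures were drawn with matplotlib 3.10.9.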

Additional observations from a re-analysis of the deposited data

Results flagged for a closer look

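Of 48 Dixon tests, on the 7 members and the histone share in the 6 groups of 4 to 10 oocytes, 2 found an oocyte far from the others, and chance alone gives about 1 in 20. In polyA GV3h controls, oocyte 2 of V995 had a histone share of 0.0338%, above the other 7. In RiboMinus MII cKO, oocyte 1 of V1166 had an Npat level of 38.9 CPM, below the other 3 of its group.

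The change from GV to MII differed between polyA and RiboMinus libraries for several members, tested as an interaction in edgeR. In controls the log2 difference was 2.76 for Slbp, 2.23 for Casp8ap2, 1.76 for Lsm11 and −3.63 for Lsm10. In cKO it was 2.26 for Slbp, 1.91 for Casp8ap2, 1.55 for Zfp473 and −2.20 for Lsm10. The value of Lsm10 in cKO was −2.88 without V1166 and −0.87 without V1167.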

How the results depend on the processing

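No paired analysis was possible because each female gave oocytes of 1 genotype, stage and library type, and the groups compared share no female number. No called member reversed in any alternative run. The number of members called moved as follows. With oocytes as replicates it was 3 at polyA GV (0 per female), 4 at GV3h (1), 4 at MII (1), 1 from GV to GV3h in cKO (0), 6 from GV to MII in polyA controls (5) and 5 in cKO (3), 4 for the polyA interaction from GV to MII (0), 1 at RiboMinus GV (0), 1 at RiboMinus MII (0), 2 from GV to MII in RiboMinus controls (0), 1 for the RiboMinus interaction (0) and 5 for the difference between library types in controls (4). The shares of all genes called in those oocyte fits were, in the same order, 35.7%, 43.9%, 40.1%, 1.57%, 59%, 71.6%, 16.8%, 25.8%, 34.5%, 19.4%, 14.8% and 44.5%. With limma voom and female as a random block it was 1 at polyA GV, 2 at GV3h, 4 from GV to MII in polyA cKO, 1 at RiboMinus MII and 2 from GV to MII in RiboMinus cKO (1). The shares of all genes called by voom were, in the same order, 20.1%, 33.4%, 59.5%, 24.8% and 19.9%. Scaled to library totals it was 3 at GV3h, 4 from GV to MII in polyA controls, 5 in polyA cKO and 0 in RiboMinus cKO, and 3 for the difference between library types in cKO (4). Under that scaling the shares of all genes called were, in the same order, 26%, 43.5%, 48.6%, 1.18% and 21.5%. From GV to MII in polyA controls it was 6 with DESeq2 (45.5% of all genes) or its size factors (42.8%) and 4 with no filter on low counts (21.2%). It was 2 at GV3h with DESeq2 (29.6% of all genes), with its size factors (25.2%) or with only the 2 groups compared (39.7%). From GV to MII in RiboMinus controls it was 1 with DESeq2 (5.1%) or with no filter on low counts (3.09%). At polyA MII it was 2 with no filter (11%). Leaving out 1 female gave 4 to 5 from GV to MII in polyA controls (4 without V856, V889 or V853), 3 to 4 for the library difference in cKO (4 without V857 or V842), 0 to 1 at polyA GV (1, Slbp, without V888), 1 to 2 at GV3h (2 without V983), 1 to 2 at polyA MII (2 without V896), 0 to 1 at RiboMinus MII (1 without V1166 or V1167), and 0 to 2 from GV to MII in RiboMinus cKO (2 without V1167). Of all genes, 38.7% were called without V853, 19.4% without V842, 24.9% without V983 and 15.4% without V896 in the comparisons named. The other females named leave 1 female in their group, so no share is set beside those counts. The histone difference without 1 female ranged from 0.00271 to 0.019 percentage points at polyA GV, 0.00717 to 0.0113 at GV3h, 0.00502 to 0.00706 at MII, 0.0357 to 0.144 at RiboMinus GV and 0.0031 to 0.0962 at RiboMinus MII. It stayed above 0, higher in cKO, in every alternative run. The causes were not tested. On simulated counts for polyA GV and RiboMinus GV, with 2 females a group, 28% and 9% of 2-fold changes were recovered, and the other designs were not simulated.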
